A study of Mus musculus with 26 samples.

Results

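DNA replication machinery here means 40 genes that encode the proteins of origin recognition, helicase loading and activation, DNA synthesis, clamp loading, Okazaki fragment processing and single-strand binding. They were listed by name, and all 40 passed the filter on low counts, out of 15238 tested genes in a table of 24421. RNA-seq counts came from mouse embryonic stem cells (ESCs) in 7 groups of 2 clones each. KO_ERRb_DBDm3, KO_ERRb_DBDm6 and KO_ERRb_AF2M6 were knockout (ERR beta -/-) clones that expressed ERR beta deficient in binding DNA (DBDm3), TFIIH (DBDm6) or coactivators (AF2M6), called the mutants here. TFIIH is a general transcription factor of RNA polymerase II. KO_ERRg_wt were knockout clones expressing wild-type ERR gamma, and KO_ERRb_wt were knockout clones expressing wild-type ERR beta. KO_mock were knockout clones and WT_mock wild-type clones, both with no ectopic expression. ERR beta, the product of Esrrb, is an orphan nuclear receptor of the naive pluripotency network. All groups received doxycycline, the inducer of the constructs, at 2 µg/ml for 3 days, and each well was seeded with 1600 cells. Each group rests on 2 clones, and every clone gave 2 libraries except those of KO_ERRg_wt, which gave 1 each. The clone is the replicate, so n = 2 in every group, and whatever sets clones of a group apart (passage, subcloning, chromosome content) cannot be told apart from the construct.

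Replication starts at origins bound by the origin recognition complex (ORC, subunits Orc1 to Orc6). In G1, Cdc6 and Cdt1 help ORC load the ring-shaped MCM helicase (Mcm2 to Mcm7), and in S phase Cdc45 and the GINS complex (Gins1 to Gins4) join the ring to make the active helicase, with help from Mcm10. Polymerase alpha-primase lays down primers, polymerases delta and epsilon extend them, replication factor C (RFC) loads the sliding clamp PCNA, Fen1 and Lig1 finish Okazaki fragments, and the RPA trimer covers exposed single strands. Many of these genes are classical targets of E2F transcription factors at the G1 to S transition. Mouse ESCs cycle quickly and spend much of the cycle in S phase.

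The promoters of the members carried the E2F word more often than the promoters of all genes. Promoter sequence was taken from RefSeq (GRCm38.p6, the assembly also named mm10), 250 bases before to 50 after each start, and 33 of the 40 members had an entry. Prim2, Rfc2, Gins2, Gins4, Pole, Mcm4 and Gins1 had none. The words searched were TTTCCCGC, TTTCGCGC, TTTGCCGC and TTTGGCGC on both strands, where matches may overlap each other. At least 1 was present for 15 of the 33 members (45.5%), against 2.61% of 27025 genes with a promoter entry and 2.26% of all 32851 promoters. The members were Mcm3, Mcm5, Mcm6, Mcm7, Orc1, Orc3, Cdc6, Cdt1, Gins3, Pola1, Pold1, Pold3, Pole2, Rfc3 and Lig1. The general promoter word CCAAT, also on both strands, was present for 21 of 33 members (63.6%) and for 41.1% of genes. These shares of genes are over all 27025 with an entry, not only those tested here. They were not matched to the members for expression or base content. The ERR response word TCAAGGTCA was in none of the 33 windows and in 0.466% of genes, which says only that these letters are absent from these windows. The stretches below show the E2F words, in capitals, for the helicase genes Mcm5, Mcm6 and Mcm7 and for Orc1 and Cdc6 of helicase loading, each read 5′ to 3′ on the strand of the gene. Mcm7 has a further E2F word after its start, outside the stretch shown. Positions are from the start of the promoter entry, which can differ from that of the counted gene. The counted Cdc6 gene starts at 98907889, so the stretch shown for Cdc6 lies after that start.
Mcm5, chr8:75109331-75109392, plus strand, bases −178 to −117 from the start: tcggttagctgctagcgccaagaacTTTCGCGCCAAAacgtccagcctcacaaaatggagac
Mcm6, chr1:128359720-128359840, minus strand, bases −135 to −15 from the start: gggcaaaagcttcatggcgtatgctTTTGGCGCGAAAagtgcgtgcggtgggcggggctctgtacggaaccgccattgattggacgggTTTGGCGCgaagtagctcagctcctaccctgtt
Mcm7, chr5:138172016-138172073, minus strand, bases −190 to −133 from the start: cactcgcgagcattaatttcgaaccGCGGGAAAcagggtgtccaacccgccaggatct
Orc1, chr4:108579402-108579453, plus strand, bases −52 to −1 from the start: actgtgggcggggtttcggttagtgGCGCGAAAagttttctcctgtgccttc
Cdc6, chr11:98907988-98908045, plus strand, bases −163 to −106 from the start: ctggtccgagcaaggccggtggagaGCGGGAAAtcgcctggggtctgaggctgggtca
Mcm6 has 3 words and Mcm5 has 2 overlapping ones, read on opposite strands. A match is a description of the letters and not a measured site, and the counts here give no binding.

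Library totals ran from 21276790 to 30021667 counts and clone totals from 25103562 to 54105869. Levels are CPM on library totals scaled by TMM (trimmed mean of M-values), called means an adjusted p below 0.05 in edgeR over all tested genes, and the value after ± is the standard error of a log2 fold change unless marked SD. Esrrb stood at 277 and 276 CPM in KO_mock, against 602 and 560.1 in WT_mock, so its locus was still read in the knockout, and Esrrg reached 229 and 124 CPM in KO_ERRg_wt and at most 0.24 elsewhere. Gene counts do not separate endogenous from construct transcripts. Whole chromosomes differed between groups. Relative to WT_mock, the median gene of chromosome 6 stood at −0.41 and −0.91 (log2) in the KO_ERRb_DBDm3 clones 9-6 and 9-8, between −0.94 and −0.91 in the 4 clones of KO_ERRb_DBDm6 and KO_ERRb_AF2M6, and at −0.33 and −0.33 in KO_ERRg_wt. Chromosome 8 stood between −0.53 and −0.43 in these 8 clones, and both chromosomes lay between 0.02 and 0.04 in KO_ERRb_wt and KO_mock. Mcm2 and Rpa3 lie on chromosome 6 and Mcm5, Gins2, Gins3, Gins4, Orc6 and Cdt1 on chromosome 8, so these 8 members are described apart. Chromosome 14, lower in all 6 knockout-derived groups, carries none of the members. All 7 ESC markers were above 1 CPM in every clone, with summed levels of 2339 to 2731 CPM, and 8 fibroblast markers summed to at most 7.01 CPM, with Postn at 0 throughout.

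Markers of other lineages also differed between groups. The sum of 8 trophoblast markers was 119 to 190.3 CPM in the 3 mutants, 106 to 114 in KO_ERRg_wt, 66.9 to 72.7 in KO_ERRb_wt, 59 to 64.2 in KO_mock and 78.4 to 79.2 in WT_mock, with Elf5 and Hand1 at most 0.144 CPM in any clone. The gene with its highest level was Tfap2c, at 20.6 to 181 CPM over the clones, while Cdx2 was at most 5.55 and Eomes at most 10.3 CPM. The sum of 8 primitive endoderm markers was 21.8 to 73.5 CPM in the mutants and 78.9 to 123 in the other groups, with Gata6 and Sox17 under 1 CPM throughout. Its highest levels were those of Lama1, at 9.81 to 98.7 CPM over the clones, and Col4a1, at 6.51 to 47.8 CPM. The sum of 7 mesoderm markers was 7.67 to 42.2 CPM in the 3 mutants, 3.83 to 5.95 in KO_ERRg_wt, 39.2 to 56.7 in KO_ERRb_wt, 55.6 to 63.1 in KO_mock and 11.5 to 17 in WT_mock. T, or Brachyury, was the gene with its highest level, at 2.56 to 52.7 CPM over the clones. The 6 neuroectoderm markers summed to 62.9 to 102 CPM over all groups. Their part in the members' differences was not tested. In bulk RNA, fewer cells of a type, fewer cells in S phase and less RNA per cell cannot be told apart.

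Per unit of length, Pcna and 5 of the 6 MCM genes had the highest mean levels of the machinery. Levels between genes are compared in TPM, computed from the counts and exon lengths, as means over the 14 clones. Pcna, the sliding clamp, had the highest mean at 438 TPM, over clones that include those with low chromosome 6 counts. Mcm2, on chromosome 6, stood above Pcna in KO_ERRb_wt (528 against 447 TPM), KO_mock (559 against 484) and WT_mock (486 against 398). The 6 MCM subunits ranged from 405 TPM for Mcm2, through 397 for Mcm7, 339 for Mcm6, 337 for Mcm5 and 311 for Mcm3, to 157 for Mcm4, although the protein ring holds equal numbers of each. Mcm4 lay below Rpa3 (189.5 TPM) and Rpa1 (174). Rfc5 (239 TPM) exceeded the other RFC subunits, which lay between 60.7 (Rfc4) and 112 TPM (Rfc2). Licensing factors spanned a wide range, with Cdt1 at 207 TPM and Cdc6 at 34.7. The lowest levels were those of Orc3 (27 TPM), Orc4 (19.9) and Gins3 (17.2). Between groups the members moved much less than they differed from each other. The highest group mean exceeded the lowest by a factor of 1.06 (Rfc2) to 1.49 (Rfc5) for the 32 members off chromosomes 6, 8 and 14, with a median of 1.26, and by 1.32 (Cdt1) to 2.58 (Rpa3) for the 8 on chromosomes 6 and 8.

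The F test for any difference among the 7 groups called 25 of the 32 members off chromosomes 6, 8 and 14 (78.1%), against 66.9% of all tested genes there. It also called all 8 on chromosomes 6 and 8, where the median gene was itself lower in the mutants and KO_ERRg_wt. That count is not read as a result about the members. Mcm4, Mcm6, Pold1, Pole, Rfc1, Rfc2 and Rfc3 were not called. Mcm4, Rfc1 and Rfc2 were also called in none of the 11 pairwise comparisons of the main fit.

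Off chromosomes 6, 8 and 14, replication genes were raised more often than all genes in KO_mock and in some mutant groups, by small folds. In KO_mock against WT_mock 11 of 32 were higher and 2 lower, where 18.8% and 17.9% of all genes were, and the median log2 fold change was 0.09 for the members and 0.01 for all genes. KO_ERRb_DBDm6 had 17 higher and 6 lower against KO_mock (22.5% and 15.9% of all genes), with medians of 0.17 and 0.05. KO_ERRb_AF2M6 had 13 higher and 4 lower (19.8% and 13.8% of all genes), with medians of 0.13 and 0.05. In the other groups set against KO_mock the shares were nearer to those of all genes. KO_ERRb_DBDm3 had 6 higher and 3 lower (13.5% and 8.31%) and KO_ERRg_wt had 7 higher and 3 lower (21.4% and 15%), with member medians of 0.09 and 0.04 and medians over all genes of 0.04 and 0.04. Against KO_ERRb_wt, KO_ERRb_DBDm3 had 7 higher and 2 lower (16.6% and 11.9% of all genes) and KO_ERRb_DBDm6 had 16 higher and 2 lower (20.8% and 14.8%). KO_ERRb_AF2M6 had 12 higher and 2 lower against KO_ERRb_wt (22.2% and 17.5%), and KO_ERRg_wt had 5 higher and 2 lower (14.5% and 8%). Comparisons with the same control share its clones, and differences between the mutants were not tested. The genes behind the shares of all genes were not matched to the members for count level.

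On chromosomes 6 and 8, all 8 members were lower in each mutant group, as most genes of these chromosomes were. They were lower against KO_mock in KO_ERRb_DBDm3, where 57.8% of all genes on the 2 chromosomes were, in KO_ERRb_DBDm6 (63.2%) and in KO_ERRb_AF2M6 (66.6%). Against KO_ERRb_wt all 8 were again lower in KO_ERRb_DBDm3 (61% of all genes there), KO_ERRb_DBDm6 (66.8%) and KO_ERRb_AF2M6 (70%). In KO_ERRg_wt 7 of 8 were lower against KO_mock, all but Rpa3 (48.7% of all genes there), and 7 of 8 against KO_ERRb_wt, all but Gins2 (46.5%). In KO_mock against WT_mock, where these chromosomes did not shift, Mcm5, Gins3 and Cdt1 were higher (16.3% of all genes there) and none was lower.

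These counts rest on 2 clones a group, and several moved by more than 1.5 times when a clone was left out. In the runs named below with a clone left out or only 2 groups fitted, the number of all genes called fell too. A fall there is not by itself particular to the members. The counts below are over all 40 members, unlike those above for the 32 off chromosomes 6, 8 and 14. Over all 40 members, 16 were called in KO_mock against WT_mock, and 2 without clone 5-2, 3 without 12-1 and 7 without 12-3. The 17 of KO_ERRb_DBDm3 against KO_mock became 7 without clone 12-1, 11 without 12-3 and 8 without 9-8, and 1 when only these 2 groups were fitted. The 31 of KO_ERRb_DBDm6 against KO_mock became 17 without clone 12-1, 19 without 12-3, 17 without 10-24 and 20 without 10-26. The 25 of KO_ERRb_AF2M6 against KO_mock became 10 without clone 12-1, 16 without 12-3 and 13 without 32-31, and the 17 of KO_ERRg_wt against KO_mock became 10 without 12-1 or 14-11. Against KO_ERRb_wt, the 17 of KO_ERRb_DBDm3 became 11 without 8-3 and 10 without 8-4, the 26 of KO_ERRb_DBDm6 became 16 without 10-24 or 10-26, and the 14 of KO_ERRg_wt became 6 without 8-4 and 8 without 14-1-10 or 14-11. With only KO_ERRb_DBDm3 and KO_ERRb_wt fitted, 3 members were called, 0 higher and 3 lower. The higher calls in that comparison thus lean on the spread estimated over all 7 groups. Over the members, the SD of the 2 clones was a median of 7.3% of their mean in KO_ERRb_DBDm3 and 2.42 to 3.5% in the other groups. The balance of directions also depended on scaling. With library totals and TMM factors from genes off chromosomes 6, 8 and 14, the split of higher and lower members was 2 and 12 in place of 6 and 11 for KO_ERRb_DBDm3 against KO_mock, and 10 and 15 in place of 17 and 14 for KO_ERRb_DBDm6 against KO_mock. It was 4 and 10 in place of 7 and 10 for KO_ERRb_DBDm3 against KO_ERRb_wt. For KO_ERRb_DBDm6 against KO_ERRb_wt it was 11 and 12 in place of 16 and 10. Over all genes, the number called changed little with this scaling. Against KO_mock it was 3899 in place of 3915 for KO_ERRb_DBDm3 and 6349 in place of 6304 for KO_ERRb_DBDm6. Against KO_ERRb_wt it was 4918 in place of 4892 and 6022 in place of 5950 for the same groups. Shares of all genes by direction with this scaling are not given. This scaling moved the members' log2 fold changes by a median of −0.03 to −0.04 in the comparisons of the mutants and KO_ERRg_wt. Among the calls described below, it ended those of Cdt1 in KO_mock against WT_mock, Mcm7 and Pola1 in KO_ERRb_DBDm3 against KO_mock, Mcm10, Pold1, Pole and Rpa1 in KO_ERRb_DBDm6 against KO_mock, Cdc45 in KO_ERRg_wt against KO_mock, and Mcm6 and Pold1 in KO_ERRb_DBDm6 against KO_ERRb_wt. It also added calls, all lower. Against KO_mock these were Rfc1 in KO_ERRb_DBDm3, Rfc1 and Rfc3 in KO_ERRb_AF2M6, Orc1 in KO_ERRb_DBDm6, and Orc1, Pcna and Lig1 in KO_ERRg_wt. Against KO_ERRb_wt they were Orc2 and Rpa2 in KO_ERRb_DBDm6 and Gins2 in KO_ERRg_wt.

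**Figure D1:**
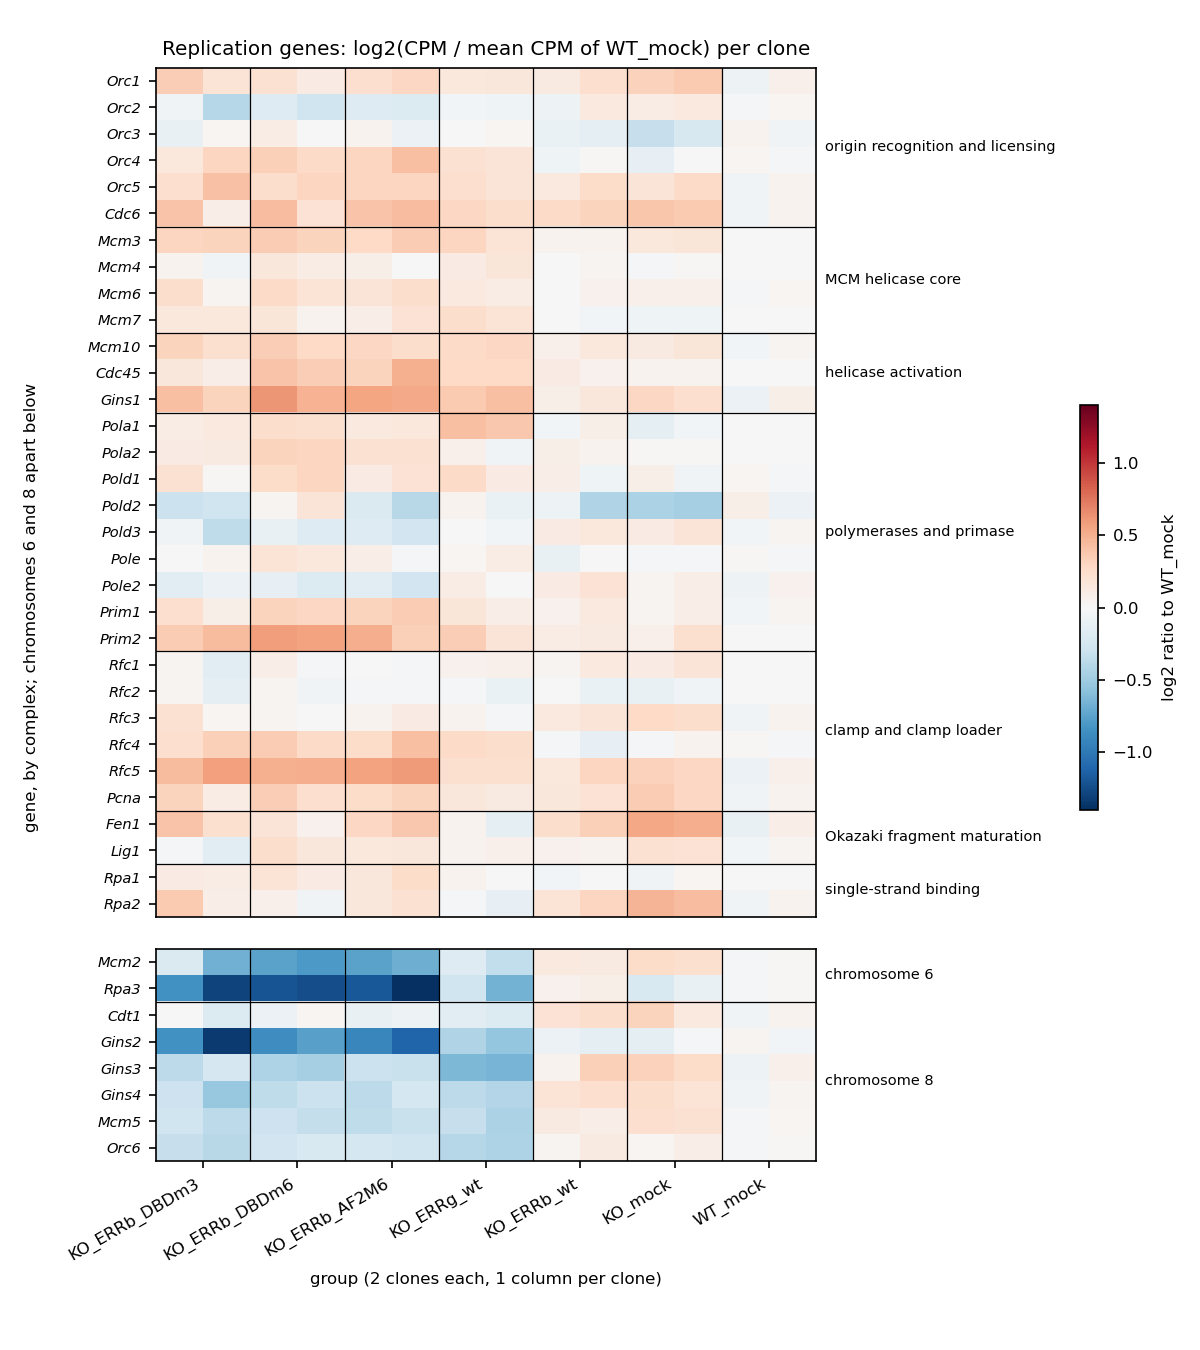
Each cell is the log2 ratio of a clone's CPM to the mean CPM of WT_mock, with genes down the page by complex and 2 columns per group. The 8 members on chromosomes 6 and 8, in the lower panel, are mostly blue in the 8 clones of the mutant and ERR gamma groups, faintly or not at all for Cdt1 and faintly for Mcm2 in clones 9-6 and 14-1-10, while Gins1, Prim2 and Rfc5 stand out in red in the mutants.

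KO_mock against WT_mock asks how the members differ without endogenous ERR beta. Fen1, Rpa2, Orc1, Pcna and Rfc5 were higher without ERR beta, by 1.24 to 1.44 times, and Pold2 was lower, these being the 6 with the smallest p off chromosomes 6, 8 and 14. Rpa2 was the 1 called subunit of RPA, and within ORC, Orc1 and Orc5 were called higher and Orc3 lower. Fen1 (mm10 chr19:10199132-10203943, minus strand), the flap endonuclease, had 169 and 166 CPM in KO_mock, against 108 and 124 in WT_mock (log2 fold change 0.53 ± 0.0904, adjusted p = 0.00157). Rpa2 (mm10 chr4:132768360-132778746, plus strand), the middle subunit of RPA, had 175 and 170.2 CPM in KO_mock, against 122 and 130.2 in WT_mock (0.45 ± 0.0885, adjusted p = 0.00298). In both genes the KO_mock clones lay close together and above both WT_mock clones, and these calls held with any clone left out. Orc1, the largest ORC subunit, had 99.1 and 102 CPM in KO_mock, against 75.1 and 83.2 in WT_mock (0.34 ± 0.0751, adjusted p = 0.00506). Pcna had 345 and 328 CPM in KO_mock, against 260.3 and 278 in WT_mock (0.32 ± 0.0744, adjusted p = 0.00666). Rfc5, a small subunit of the clamp loader, had 229 and 224 CPM in KO_mock, against 173 and 193 in WT_mock (0.31 ± 0.0727, adjusted p = 0.00772). The groups did not overlap in these 3 genes, but each call was lost without clone 5-2, and those of Pcna and Rfc5 also without 12-1. Pold2, the accessory subunit that anchors polymerase delta, ran the other way, with 71.6 and 70.6 CPM in KO_mock, against 103 and 91.8 in WT_mock (−0.45 ± 0.111, adjusted p = 0.00939). That call did not hold without 5-2, 12-1 or 12-3. The other calls, Cdc6, Rfc3, Lig1, Gins1, Orc5 and Mcm3 higher and Orc3 lower, had log2 fold changes between −0.27 and 0.38, and each was lost without at least 2 of the 4 clones.

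On chromosome 8, Mcm5 had 834 and 822 CPM in KO_mock, against 695 and 723 in WT_mock (0.22 ± 0.0585, adjusted p = 0.0125), Gins3 had 31.8 and 30.6 CPM in KO_mock, against 24.2 and 26.8 in WT_mock (0.29 ± 0.0998, adjusted p = 0.04) and Cdt1 had 311 and 276 CPM in KO_mock, against 242 and 259.8 in WT_mock (0.23 ± 0.0803, adjusted p = 0.0456). Each call was lost without 3 of the 4 clones, 5-2 and 12-1 among them. Relative to the median of its chromosome, Gins3 missed the threshold (0.27, adjusted p = 0.0597), while Mcm2 on chromosome 6 passed it (0.25, adjusted p = 0.00834), with 1055 and 1026 CPM in KO_mock, against 869.7 and 890.3 in WT_mock.

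**Figure D2:**
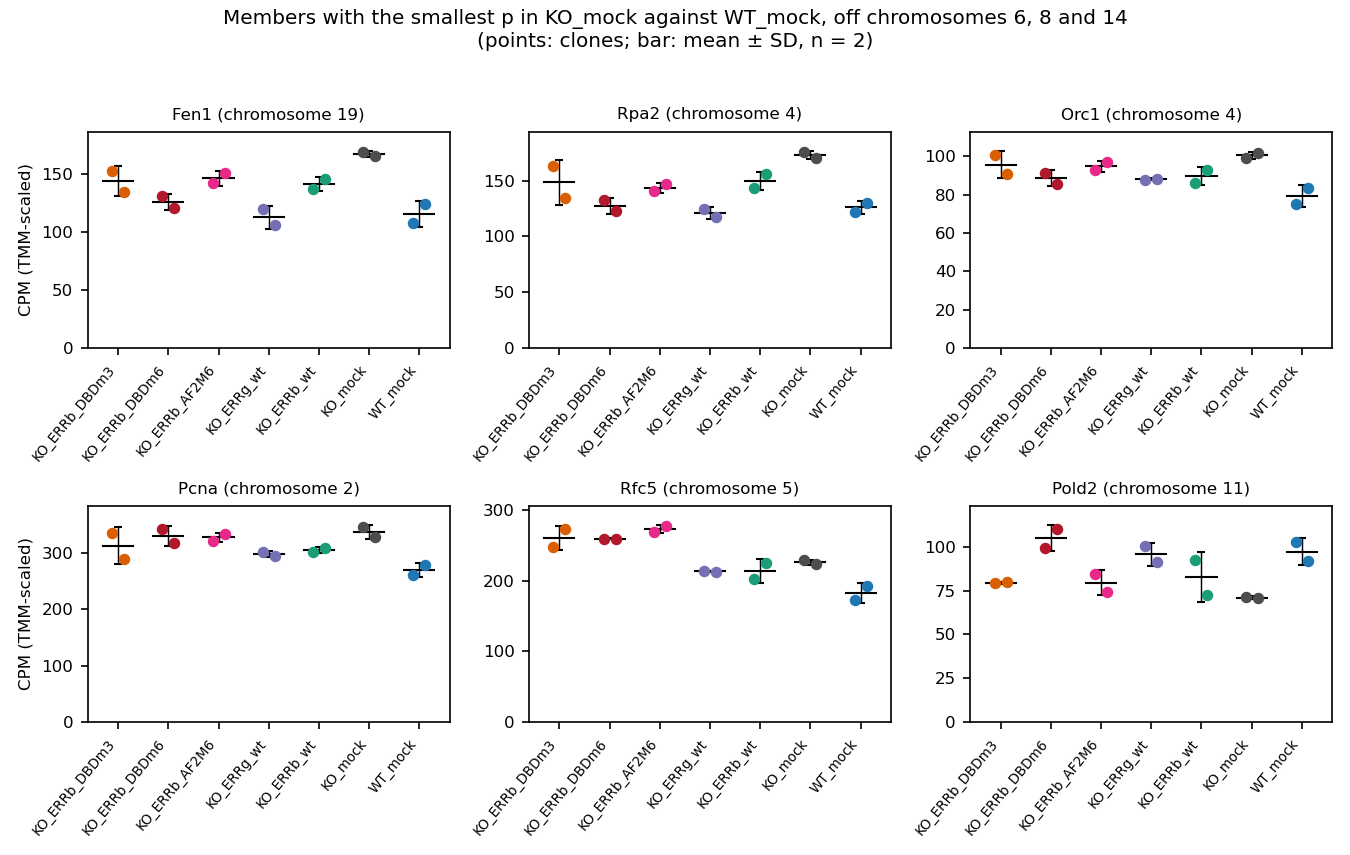
Points are CPM of single clones and bars the mean ± SD of the 2 clones, for the 6 members off chromosomes 6, 8 and 14 with the smallest p in KO_mock against WT_mock. Fen1 and Rpa2 are highest in KO_mock (166 and 169 CPM for Fen1) and close to WT_mock in KO_ERRg_wt, while Pold2 is lowest in KO_mock.

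With wild-type ERR beta put back into the knockout, no member differed past the threshold from either WT_mock or KO_mock. KO_ERRb_wt had 0 members called against WT_mock, where 10.3% of all 15238 genes were, and 0 against KO_mock, where 1.85% were. Unlike the shares above, these cover all chromosomes. They include 513 genes of chromosome 14, whose median was −0.56 (log2) in KO_ERRb_wt against WT_mock and which carries no member. At an unadjusted p below 0.05 there were 9 and 4 members, and DESeq2 called 2 and 0. For each of the 13 members called in KO_mock against WT_mock off chromosomes 6, 8 and 14, the KO_ERRb_wt mean lay between those of KO_mock and WT_mock, as it did for 91.0% of the 4847 genes called there. These comparisons share clones, so the share is a description. The difference that remained against WT_mock was a median of 54.4% of the KO_mock difference over these members and 55.9% over the 4847 genes. Fen1 had 138 and 146 CPM in KO_ERRb_wt, against 169 and 166 in KO_mock (−0.24 ± 0.0901, adjusted p = 0.182), and Rpa2 had 144 and 156 CPM in KO_ERRb_wt, against 175 and 170.2 in KO_mock (−0.21 ± 0.0883, adjusted p = 0.229). In both genes the clones of the 2 groups did not overlap, and neither difference passed the threshold.

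Origin recognition and licensing genes moved in different directions, by small folds. Orc4, an ATPase-family subunit of ORC, had 55.5 and 62 CPM in KO_ERRb_DBDm3, 63.3 and 60.3 in KO_ERRb_DBDm6, 61.8 and 67.3 in KO_ERRb_AF2M6, 58.4 and 57 in KO_ERRg_wt, 48.3 and 50.9 in KO_ERRb_wt, 46.3 and 50.4 in KO_mock, and 51.2 and 49.4 in WT_mock. Both clones of each mutant and of KO_ERRg_wt lay above both KO_mock clones, and the difference was called in KO_ERRb_AF2M6 against KO_mock (log2 fold change 0.41 ± 0.0774, adjusted p = 0.00173), a call that held with any clone left out, as it did in KO_ERRb_DBDm6 (0.35 ± 0.0774, adjusted p = 0.00394). In KO_ERRb_DBDm3 against KO_mock (0.28 ± 0.0774, adjusted p = 0.0218) the call was lost without 12-1 or 9-8. Orc3 had 92.2 and 101 CPM in KO_ERRb_DBDm3, 107 and 99 in KO_ERRb_DBDm6, 103 and 93.3 in KO_ERRb_AF2M6, 99.5 and 101 in KO_ERRg_wt, 92.7 and 89.8 in KO_ERRb_wt, 79.1 and 84.9 in KO_mock, and 102 and 95.8 in WT_mock, lowest in KO_mock. It was higher in KO_ERRg_wt than in KO_mock (0.29 ± 0.0744, adjusted p = 0.00997), a call lost without 12-1 or 14-11. Orc2 was lower in all 3 mutants against KO_mock, with log2 fold changes of −0.33 in KO_ERRb_DBDm3, −0.34 in KO_ERRb_DBDm6 and −0.31 in KO_ERRb_AF2M6, each lost without at least 3 of the 4 clones. Orc1, Orc5 and Cdc6, higher in KO_mock than in WT_mock, passed the threshold in no other comparison of the main fit.

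Orc6 (mm10 chr8:85299632-85308279, plus strand), the smallest ORC subunit, had 94.7 and 90.2 CPM in KO_ERRb_DBDm3, 98.2 and 102 in KO_ERRb_DBDm6, 99.6 and 97.2 in KO_ERRb_AF2M6, 89.3 and 87.7 in KO_ERRg_wt, 121 and 129 in KO_ERRb_wt, 120.4 and 127 in KO_mock, and 117 and 119.5 in WT_mock. It was lower in every mutant and in KO_ERRg_wt, with the smallest shift in KO_ERRb_DBDm6 (−0.30 ± 0.0583, adjusted p = 0.00181 against KO_mock) and the largest in KO_ERRg_wt (−0.48 ± 0.0589, adjusted p = 0.000148). Cdt1 (mm10 chr8:122568015-122573130, plus strand), the loading factor that geminin inhibits, had 252 and 219 CPM in KO_ERRb_DBDm3, 237 and 255 in KO_ERRb_DBDm6, 233 and 238 in KO_ERRb_AF2M6, 224 and 220.0 in KO_ERRg_wt, 289 and 298 in KO_ERRb_wt, 311 and 276 in KO_mock, and 242 and 259.8 in WT_mock. Its shifts against KO_mock (−0.25 to −0.40, log2) were smaller than the median of chromosome 8 in the same comparisons (−0.49 to −0.55). The largest was in KO_ERRg_wt (−0.40 ± 0.0807, adjusted p = 0.00278), a call that held with any clone left out.

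The MCM ring split by chromosome. Mcm2 (mm10 chr6:88883474-88898780, minus strand) had 766 and 550.0 CPM in KO_ERRb_DBDm3, 523 and 505 in KO_ERRb_DBDm6, 525 and 548 in KO_ERRb_AF2M6, 774 and 694 in KO_ERRg_wt, 967 and 959 in KO_ERRb_wt, 1055 and 1026 in KO_mock, and 869.7 and 890.3 in WT_mock. The mutants lay below all other clones apart from KO_ERRb_DBDm3 clone 9-6, which had 766 CPM against 694 and 774 in KO_ERRg_wt. Mcm2 was lower against KO_mock in KO_ERRb_DBDm6 (log2 fold change −1.02 ± 0.118, adjusted p = 9.65e-05), KO_ERRb_AF2M6 (−0.96 ± 0.118, adjusted p = 0.000163), KO_ERRb_DBDm3 (−0.66 ± 0.118, adjusted p = 0.00266) and KO_ERRg_wt (−0.50 ± 0.118, adjusted p = 0.00647), the last lost without 14-11. Mcm5 (mm10 chr8:75109509-75128439, plus strand) had 585 and 549 CPM in KO_ERRb_DBDm3, 579 and 564 in KO_ERRb_DBDm6, 555 and 573 in KO_ERRb_AF2M6, 568 and 522 in KO_ERRg_wt, 771 and 754 in KO_ERRb_wt, 834 and 822 in KO_mock, and 695 and 723 in WT_mock. No clone of the mutants or KO_ERRg_wt reached the lowest clone of the other groups, and the fold changes against KO_mock were close to each other, from −0.53 ± 0.0586, adjusted p = 6.52e-05 in KO_ERRb_DBDm6 to −0.60 ± 0.0588, adjusted p = 3.64e-05 in KO_ERRg_wt. All Mcm5 calls in these 4 groups held with any clone left out.

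The 4 MCM genes on other chromosomes were level or slightly higher in the same groups. Mcm3 had 539.9 and 545 CPM in KO_ERRb_DBDm3, 562 and 543 in KO_ERRb_DBDm6, 533 and 561 in KO_ERRb_AF2M6, 539 and 499 in KO_ERRg_wt, 452 and 452 in KO_ERRb_wt, 485 and 494 in KO_mock, and 435 and 441 in WT_mock. It was higher against KO_ERRb_wt in KO_ERRb_DBDm6 (0.29 ± 0.0547, adjusted p = 0.00175), KO_ERRb_AF2M6 (0.27 ± 0.0547, adjusted p = 0.00214) and KO_ERRb_DBDm3 (0.26 ± 0.0547, adjusted p = 0.00441), all held with any clone left out, and in KO_ERRg_wt (0.20 ± 0.0547, adjusted p = 0.0216), lost without 8-3, 8-4 or 14-1-10. The Mcm3 call in KO_ERRb_DBDm3 against KO_ERRb_wt was lost when only those 2 groups were fitted. Mcm7 had 559.9 and 561 CPM in KO_ERRb_DBDm3, 569.8 and 523 in KO_ERRb_DBDm6, 542 and 584 in KO_ERRb_AF2M6, 602 and 577 in KO_ERRg_wt, 505 and 491 in KO_ERRb_wt, 485 and 486 in KO_mock, and 503 and 509 in WT_mock, lowest in KO_mock. Against KO_mock it was higher in KO_ERRg_wt (0.28 ± 0.0589, adjusted p = 0.00367), a call that held with any clone left out, and in KO_ERRb_DBDm3 (0.21 ± 0.0588, adjusted p = 0.0252), lost without 12-1, 12-3 or 9-8. Mcm4 had 317 and 296 CPM in KO_ERRb_DBDm3, 342 and 329 in KO_ERRb_DBDm6, 324 and 304 in KO_ERRb_AF2M6, 330.4 and 343 in KO_ERRg_wt, 305 and 314 in KO_ERRb_wt, 302 and 309 in KO_mock, and 304 and 307 in WT_mock. These ranges were narrow, and no comparison was called. Mcm6 had 606 and 523 CPM in KO_ERRb_DBDm3, 613 and 581 in KO_ERRb_DBDm6, 577 and 608 in KO_ERRb_AF2M6, 562 and 549 in KO_ERRg_wt, 512 and 533 in KO_ERRb_wt, 537 and 535 in KO_mock, and 503 and 519 in WT_mock, and it was called in 1 comparison, KO_ERRb_DBDm6 against KO_ERRb_wt (0.19 ± 0.0695, adjusted p = 0.0461), which was lost with any of the 4 clones left out.

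**Figure D3:**
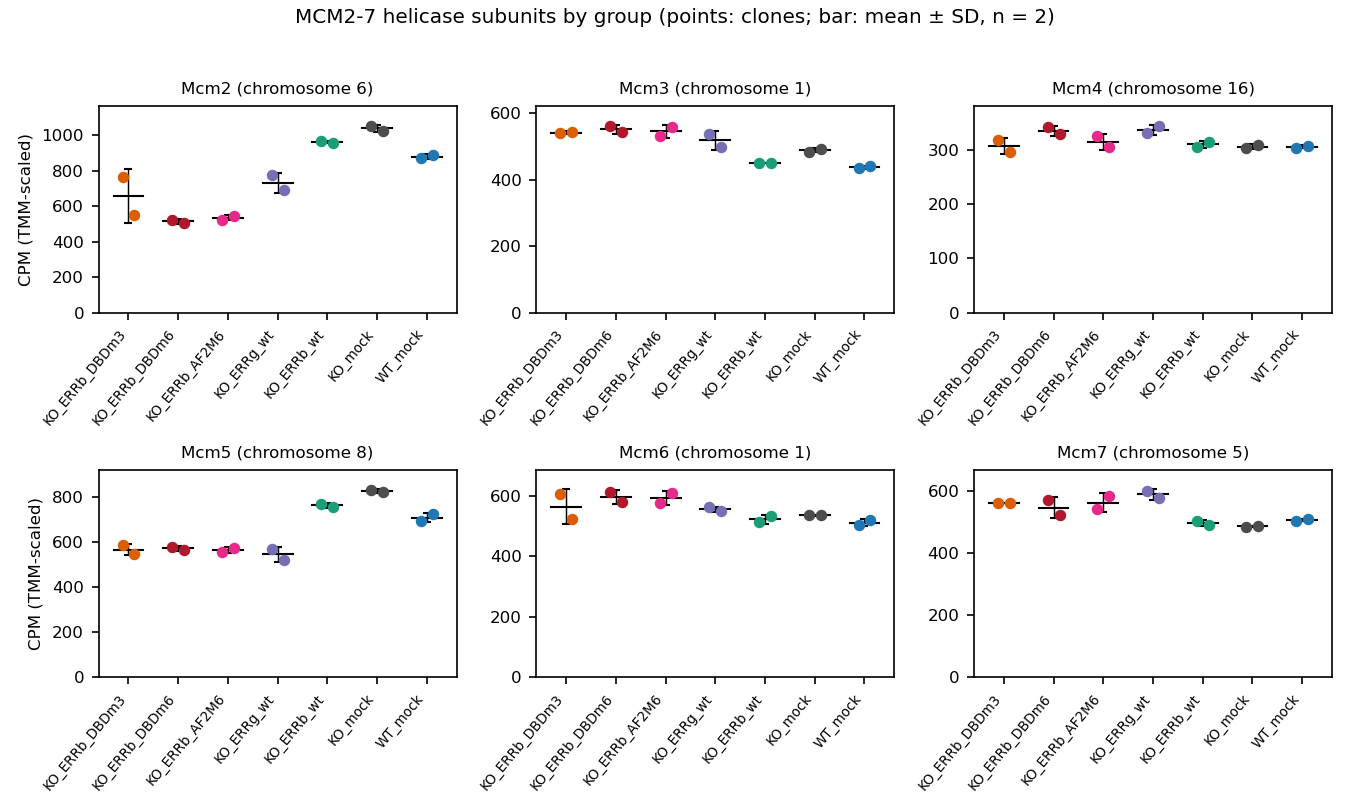
CPM of the 6 MCM subunits by group, 1 point per clone with the mean ± SD (n = 2). Mcm2 sits lowest in the mutants (505 to 766 CPM) and Mcm5 in the mutants and KO_ERRg_wt (522 to 585 CPM), while Mcm3 is higher in those groups (499 to 562 CPM) than in KO_ERRb_wt (452 CPM in both clones).

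Cdc45 and Gins1, helicase activators off chromosome 8, were higher in KO_ERRb_DBDm6 and KO_ERRb_AF2M6 than in KO_mock and KO_ERRb_wt. Cdc45, which bridges the MCM ring and GINS, had 73.1 and 69.6 CPM in KO_ERRb_DBDm3, 86.2 and 83.3 in KO_ERRb_DBDm6, 81.3 and 92.4 in KO_ERRb_AF2M6, 79.3 and 79.3 in KO_ERRg_wt, 71 and 68 in KO_ERRb_wt, 67.8 and 67.8 in KO_mock, and 65.8 and 65 in WT_mock. Both clones of KO_ERRb_DBDm6, KO_ERRb_AF2M6 and KO_ERRg_wt lay above every clone of the other groups, and the difference from KO_mock was called in KO_ERRb_DBDm6 (log2 fold change 0.32 ± 0.068, adjusted p = 0.00319) and KO_ERRb_AF2M6 (0.36 ± 0.068, adjusted p = 0.00192) with any clone left out, and in KO_ERRg_wt (0.23 ± 0.0685, adjusted p = 0.0227) only with all 4. Gins1 had 55.5 and 51.4 CPM in KO_ERRb_DBDm3, 63.4 and 58.2 in KO_ERRb_DBDm6, 60.9 and 59.7 in KO_ERRb_AF2M6, 53.5 and 55.5 in KO_ERRg_wt, 43.9 and 46.3 in KO_ERRb_wt, 50.4 and 48.6 in KO_mock, and 38.9 and 43.8 in WT_mock. It was highest in KO_ERRb_DBDm6 and KO_ERRb_AF2M6, which were higher than KO_ERRb_wt (0.43 ± 0.0775, adjusted p = 0.00127 and 0.42 ± 0.0774, adjusted p = 0.00136, both held with any clone left out). Mcm10 rose against KO_mock in KO_ERRb_DBDm6 (0.17 ± 0.0585, adjusted p = 0.039), lost with any clone left out.

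The other GINS subunits lie on chromosome 8. Gins2 (mm10 chr8:120581266-120589075, minus strand) had 39 and 27.8 CPM in KO_ERRb_DBDm3, 38.3 and 41.6 in KO_ERRb_DBDm6, 37.4 and 32.4 in KO_ERRb_AF2M6, 52.6 and 48.2 in KO_ERRg_wt, 66.3 and 63.8 in KO_ERRb_wt, 64.3 and 68.7 in KO_mock, and 72.1 and 68.3 in WT_mock. The mutant clones lay at or below 41.6 CPM and the clones of the other groups at or above 48.2 CPM. It was lower against KO_mock in KO_ERRb_DBDm3 (−0.99 ± 0.133, adjusted p = 0.000564), KO_ERRb_AF2M6 (−0.93 ± 0.133, adjusted p = 0.000351) and KO_ERRb_DBDm6 (−0.73 ± 0.132, adjusted p = 0.00124), all held with any clone left out, and in KO_ERRg_wt (−0.40 ± 0.132, adjusted p = 0.0335), lost with any. Gins3 (mm10 chr8:95633559-95645059, plus strand) had 19.9 and 21.8 CPM in KO_ERRb_DBDm3, 18.9 and 18.5 in KO_ERRb_DBDm6, 20.7 and 20.6 in KO_ERRb_AF2M6, 16.6 and 16.2 in KO_ERRg_wt, 26.4 and 32.1 in KO_ERRb_wt, 31.8 and 30.6 in KO_mock, and 24.2 and 26.8 in WT_mock. Its lowest level was in KO_ERRg_wt, where the shift from KO_mock (−0.93 ± 0.103, adjusted p = 7.79e-05) exceeded those in the mutants (−0.74 ± 0.101, adjusted p = 0.000237 in KO_ERRb_DBDm6, −0.60 ± 0.1, adjusted p = 0.000951 in KO_ERRb_AF2M6, −0.59 ± 0.1, adjusted p = 0.00206 in KO_ERRb_DBDm3), though that difference was not tested. Gins4 was between 69.5 and 85.1 CPM in the mutants and KO_ERRg_wt and between 97.7 and 119 CPM in KO_ERRb_wt, KO_mock and WT_mock, with log2 fold changes against KO_mock from −0.63 to −0.52.

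All 4 genes of the priming polymerase were higher in KO_ERRb_DBDm6 than in KO_mock. Pola1, the catalytic subunit of polymerase alpha on the X chromosome, had 221 and 227 CPM in KO_ERRb_DBDm3, 244 and 241 in KO_ERRb_DBDm6, 227 and 229 in KO_ERRb_AF2M6, 275 and 267 in KO_ERRg_wt, 201 and 218 in KO_ERRb_wt, 188 and 201 in KO_mock, and 206 and 206 in WT_mock. KO_ERRg_wt was highest, and the call against KO_mock (log2 fold change 0.48 ± 0.059, adjusted p = 0.000152) and that against KO_ERRb_wt (0.37 ± 0.0589, adjusted p = 0.00115) held with any clone left out, as did KO_ERRb_DBDm6 against KO_mock (0.32 ± 0.0588, adjusted p = 0.00144). The calls against KO_mock in KO_ERRb_AF2M6 (0.23 ± 0.0587, adjusted p = 0.0107) and KO_ERRb_DBDm3 (0.20 ± 0.0587, adjusted p = 0.0266) were each lost without 12-1 and without 1 of the mutant clones. Pola2, its accessory subunit, had 145 and 147 CPM in KO_ERRb_DBDm3, 168 and 165 in KO_ERRb_DBDm6, 156 and 157 in KO_ERRb_AF2M6, 142 and 130.4 in KO_ERRg_wt, 143 and 139 in KO_ERRb_wt, 136 and 136 in KO_mock, and 135 and 134 in WT_mock. Only KO_ERRb_DBDm6 and KO_ERRb_AF2M6 were called, and KO_ERRb_DBDm6 held with any clone left out against KO_mock (0.29 ± 0.0546, adjusted p = 0.00155) and KO_ERRb_wt (0.24 ± 0.0545, adjusted p = 0.00549). Prim2, the large primase subunit, had 65.3 and 69.4 CPM in KO_ERRb_DBDm3, 76.1 and 75.1 in KO_ERRb_DBDm6, 72.6 and 64.2 in KO_ERRb_AF2M6, 64.4 and 57.7 in KO_ERRg_wt, 54.6 and 55.4 in KO_ERRb_wt, 53.6 and 59.2 in KO_mock, and 50.6 and 51.1 in WT_mock. The mutants lay above all other clones but clone 14-1-10 of KO_ERRg_wt, which overlapped KO_ERRb_AF2M6. KO_ERRb_DBDm6 was higher than KO_mock (0.42 ± 0.0809, adjusted p = 0.00181) and than KO_ERRb_wt (0.46 ± 0.0809, adjusted p = 0.00111) with any clone left out, while KO_ERRb_DBDm3 against KO_ERRb_wt (0.29 ± 0.0809, adjusted p = 0.0182) was lost without 8-3, 8-4 or 9-8. Prim1, the catalytic primase subunit, was higher than KO_mock in KO_ERRb_AF2M6 (0.27 ± 0.0684, adjusted p = 0.00901), lost without 12-1 or 32-31.

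The subunits of polymerases delta and epsilon did not move together. Pold2 had 79.2 and 79.9 CPM in KO_ERRb_DBDm3, 99.6 and 110.2 in KO_ERRb_DBDm6, 84.7 and 74.5 in KO_ERRb_AF2M6, 100.4 and 91.3 in KO_ERRg_wt, 92.8 and 72.8 in KO_ERRb_wt, 71.6 and 70.6 in KO_mock, and 103 and 91.8 in WT_mock. KO_ERRb_DBDm6 and KO_ERRg_wt were near WT_mock, and both were higher than KO_mock (log2 fold change 0.56 ± 0.111, adjusted p = 0.00221 in KO_ERRb_DBDm6, held with any clone left out, and 0.43 ± 0.112, adjusted p = 0.011 in KO_ERRg_wt, lost without 12-1, 12-3 or 14-1-10). Clones 8-3 and 8-4 of KO_ERRb_wt differed by more than the other pairs. Pold3 had 112 and 90.2 CPM in KO_ERRb_DBDm3, 107 and 102 in KO_ERRb_DBDm6, 102 and 95.4 in KO_ERRb_AF2M6, 115 and 112 in KO_ERRg_wt, 125 and 128 in KO_ERRb_wt, 125 and 130.4 in KO_mock, and 112 and 118 in WT_mock. It was lower against KO_mock in KO_ERRb_AF2M6 (−0.37 ± 0.0884, adjusted p = 0.00713), lost without 12-3 or 32-31, and in KO_ERRb_DBDm3 (−0.34 ± 0.0883, adjusted p = 0.0178), lost without 12-1, 12-3 or 9-8. Against KO_ERRb_wt it was lower in KO_ERRb_DBDm3 (−0.32 ± 0.0883, adjusted p = 0.0175), lost without 8-3, 8-4 or 9-8. Pole2, the second subunit of polymerase epsilon, had 43.9 and 46.1 CPM in KO_ERRb_DBDm3, 45.2 and 43 in KO_ERRb_DBDm6, 44.1 and 40.6 in KO_ERRb_AF2M6, 52.6 and 48.9 in KO_ERRg_wt, 52.8 and 56.2 in KO_ERRb_wt, 50.2 and 52 in KO_mock, and 46.6 and 51.2 in WT_mock. It was lower than KO_ERRb_wt in KO_ERRb_AF2M6 (−0.36 ± 0.0766, adjusted p = 0.00299), held with any clone left out, and in KO_ERRb_DBDm3 (−0.28 ± 0.0765, adjusted p = 0.0179), lost without 8-4 or 9-6. The catalytic subunits Pold1 and Pole were higher in KO_ERRb_DBDm6 only, against KO_mock and against KO_ERRb_wt, with log2 fold changes of 0.19 to 0.26, each call lost without at least 2 clones. A test of that difference between groups was not made.

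Among clamp and clamp loader genes, Rfc4 and Rfc5 were higher in the mutants than in KO_ERRb_wt. Their calls in KO_ERRb_DBDm3 against KO_ERRb_wt were lost when only those 2 groups were fitted. Pcna had 335 and 289 CPM in KO_ERRb_DBDm3, 342 and 316 in KO_ERRb_DBDm6, 321 and 333 in KO_ERRb_AF2M6, 301 and 294 in KO_ERRg_wt, 301 and 308 in KO_ERRb_wt, 345 and 328 in KO_mock, and 260.3 and 278 in WT_mock. It was lowest in WT_mock, and KO_mock against WT_mock was its only called comparison in the main fit. Rfc4 had 43.6 and 46.4 CPM in KO_ERRb_DBDm3, 47.2 and 44.5 in KO_ERRb_DBDm6, 44.2 and 49.6 in KO_ERRb_AF2M6, 44.6 and 44 in KO_ERRg_wt, 36.3 and 34.2 in KO_ERRb_wt, 36.1 and 38.1 in KO_mock, and 37.3 and 36.6 in WT_mock. The clones of the mutants and KO_ERRg_wt all lay above those of the other 3 groups. The differences from KO_ERRb_wt were called in KO_ERRb_AF2M6 (log2 fold change 0.41 ± 0.0764, adjusted p = 0.0014), KO_ERRb_DBDm6 (0.38 ± 0.0764, adjusted p = 0.00258) and KO_ERRb_DBDm3 (0.35 ± 0.0764, adjusted p = 0.0055), all held with any clone left out, and in KO_ERRg_wt (0.33 ± 0.0772, adjusted p = 0.0104), lost without 8-4, 14-1-10 or 14-11. Against KO_mock, the Rfc4 call in KO_ERRb_AF2M6 (0.34 ± 0.0764, adjusted p = 0.00531) was lost without 12-1 or 32-31, and that in KO_ERRb_DBDm3 (0.28 ± 0.0764, adjusted p = 0.0216) without 12-1, 12-3 or 9-8. Rfc5 had 249 and 273 CPM in KO_ERRb_DBDm3, 259 and 260.1 in KO_ERRb_DBDm6, 270.2 and 278 in KO_ERRb_AF2M6, 214 and 213 in KO_ERRg_wt, 202 and 226 in KO_ERRb_wt, 229 and 224 in KO_mock, and 173 and 193 in WT_mock. KO_ERRb_AF2M6 exceeded KO_ERRb_wt (0.35 ± 0.0726, adjusted p = 0.00256) with any clone left out, and KO_ERRb_DBDm3 exceeded KO_ERRb_wt (0.28 ± 0.0726, adjusted p = 0.0122) except without 8-3 or 9-8. Rfc1 and Rfc2 ranged over 189 to 238 and 89.6 to 100.2 CPM over the 14 clones.

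Fen1 and Rpa2, the members most raised in KO_mock, were lower in several other knockout-derived groups. They were picked for their high level in the KO_mock clones, which are also the reference here. Such a choice favours lower values elsewhere. Fen1 had 153 and 135 CPM in KO_ERRb_DBDm3, 131 and 121 in KO_ERRb_DBDm6, 142 and 151 in KO_ERRb_AF2M6, 120.0 and 106 in KO_ERRg_wt, 138 and 146 in KO_ERRb_wt, 169 and 166 in KO_mock, and 108 and 124 in WT_mock. KO_ERRg_wt overlapped WT_mock and was lower than KO_mock (log2 fold change −0.57 ± 0.0909, adjusted p = 0.00074), a call that held with any clone left out, and lower than KO_ERRb_wt (−0.33 ± 0.0908, adjusted p = 0.0223), lost without 8-4 or 14-11. KO_ERRb_DBDm6 was also lower than KO_mock (−0.41 ± 0.0902, adjusted p = 0.00416). Rpa2 had 163 and 134 CPM in KO_ERRb_DBDm3, 132 and 122 in KO_ERRb_DBDm6, 140.3 and 147 in KO_ERRb_AF2M6, 125 and 117 in KO_ERRg_wt, 144 and 156 in KO_ERRb_wt, 175 and 170.2 in KO_mock, and 122 and 130.2 in WT_mock. It was lower than KO_mock in KO_ERRg_wt (−0.52 ± 0.0891, adjusted p = 0.00112) and KO_ERRb_DBDm6 (−0.44 ± 0.0885, adjusted p = 0.00245), both held with any clone left out, and in KO_ERRb_AF2M6 (−0.27 ± 0.0883, adjusted p = 0.0341), lost with any. KO_ERRb_DBDm3 and KO_ERRb_AF2M6 lay between KO_mock and WT_mock for both genes. Lig1, the ligase that seals Okazaki fragments, had 213 and 193 CPM in KO_ERRb_DBDm3, 255 and 239 in KO_ERRb_DBDm6, 238 and 239 in KO_ERRb_AF2M6, 222 and 225 in KO_ERRg_wt, 224 and 223 in KO_ERRb_wt, 250.03 and 247 in KO_mock, and 209.7 and 220.1 in WT_mock. KO_ERRb_DBDm3 was lower than KO_mock (−0.29 ± 0.0615, adjusted p = 0.00609), a call lost without 12-1.

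The 3 RPA subunits went in different directions, with Rpa3 the most changed. Rpa3 (mm10 chr6:8255936-8259141, minus strand), the smallest, had 52.1 and 38.3 CPM in KO_ERRb_DBDm3, 40.7 and 39.6 in KO_ERRb_DBDm6, 41.2 and 35.3 in KO_ERRb_AF2M6, 77.7 and 59.7 in KO_ERRg_wt, 98.2 and 99.3 in KO_ERRb_wt, 81.4 and 87.8 in KO_mock, and 93 and 95.2 in WT_mock. All mutant clones lay below all other clones, and the differences from KO_ERRb_wt were −1.37 ± 0.146, adjusted p = 5.8e-05 in KO_ERRb_AF2M6, the largest of any member in the 11 comparisons, −1.30 ± 0.146, adjusted p = 8.69e-05 in KO_ERRb_DBDm6 and −1.13 ± 0.145, adjusted p = 0.000351 in KO_ERRb_DBDm3, all held with any clone left out. In KO_ERRb_DBDm3, clone 9-8 was lower than 9-6 for Rpa3 and Mcm2, as the median gene of chromosome 6 was. In KO_ERRg_wt Rpa3 was lower than KO_ERRb_wt (−0.52 ± 0.144, adjusted p = 0.0224), lost without 8-3, 8-4 or 14-11. Rpa1, the largest subunit, had 314 and 312 CPM in KO_ERRb_DBDm3, 331 and 314 in KO_ERRb_DBDm6, 322 and 347 in KO_ERRb_AF2M6, 299 and 288 in KO_ERRg_wt, 281 and 289 in KO_ERRb_wt, 280.0 and 296 in KO_mock, and 288 and 291 in WT_mock. It was slightly higher than KO_mock in KO_ERRb_DBDm6 (0.16 ± 0.0578, adjusted p = 0.041) and KO_ERRb_AF2M6 (0.22 ± 0.0578, adjusted p = 0.0128), the calls lost without at least 2 of the clones.

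To see which of the 8 members departed from their chromosomes, the fit was repeated with an offset per clone and chromosome, so that a fold change is relative to the median gene of the chromosome. Mcm2, Mcm5 and Gins4 were then called in none of the 8 comparisons of the mutants and KO_ERRg_wt with KO_mock and KO_ERRb_wt, with log2 fold changes between −0.14 and 0.12. Gins2 stayed lower in KO_ERRb_DBDm3 (−0.46, adjusted p = 0.0261 against KO_mock and −0.41, adjusted p = 0.0318 against KO_ERRb_wt) and in KO_ERRb_AF2M6 (−0.39, adjusted p = 0.0332 and −0.35, adjusted p = 0.0483). It missed the threshold in KO_ERRb_DBDm6 (−0.24, adjusted p = 0.16 against KO_mock). Rpa3 was lower than KO_ERRb_wt beyond its chromosome in KO_ERRb_DBDm3 (−0.47, adjusted p = 0.00848), KO_ERRb_DBDm6 (−0.36, adjusted p = 0.0215) and KO_ERRb_AF2M6 (−0.41, adjusted p = 0.0101), but not lower than KO_mock past the threshold, with log2 fold changes from −0.26 to −0.16. Gins3 was lower in KO_ERRg_wt against KO_mock (−0.40, adjusted p = 0.0137). Orc6 and Cdt1 went the other way. Relative to chromosome 8, Orc6 was higher than KO_mock in KO_ERRb_DBDm6 (0.20, adjusted p = 0.0234) and KO_ERRb_AF2M6 (0.21, adjusted p = 0.0206), and so was Cdt1 (0.25, adjusted p = 0.0193 and 0.22, adjusted p = 0.0352). Cdt1 was also higher than KO_ERRb_wt in all 3 mutants, by 0.23 to 0.26. No call made with this offset, that of Mcm2 in KO_mock against WT_mock included, was checked with a clone left out. With this offset the split of all called members against KO_mock was 3 higher and 6 lower in KO_ERRb_DBDm3 and 13 and 7 in KO_ERRb_DBDm6. It was 13 and 8 in KO_ERRb_AF2M6 and 5 and 6 in KO_ERRg_wt. Against KO_ERRb_wt it was 4 and 5 in KO_ERRb_DBDm3, 14 and 4 in KO_ERRb_DBDm6, 10 and 5 in KO_ERRb_AF2M6 and 4 and 2 in KO_ERRg_wt. Without the offset those splits were 7 and 10, 16 and 10, 12 and 10, and 5 and 9. Of 15238 tested genes, the offset fit called 3161, 5822, 5004 and 5592 against KO_mock, in the same order of groups. Against KO_ERRb_wt it called 4248, 5344, 5891 and 3294. Their shares by direction are not given, so these splits are not read as a result about the members.

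**Figure D4:**
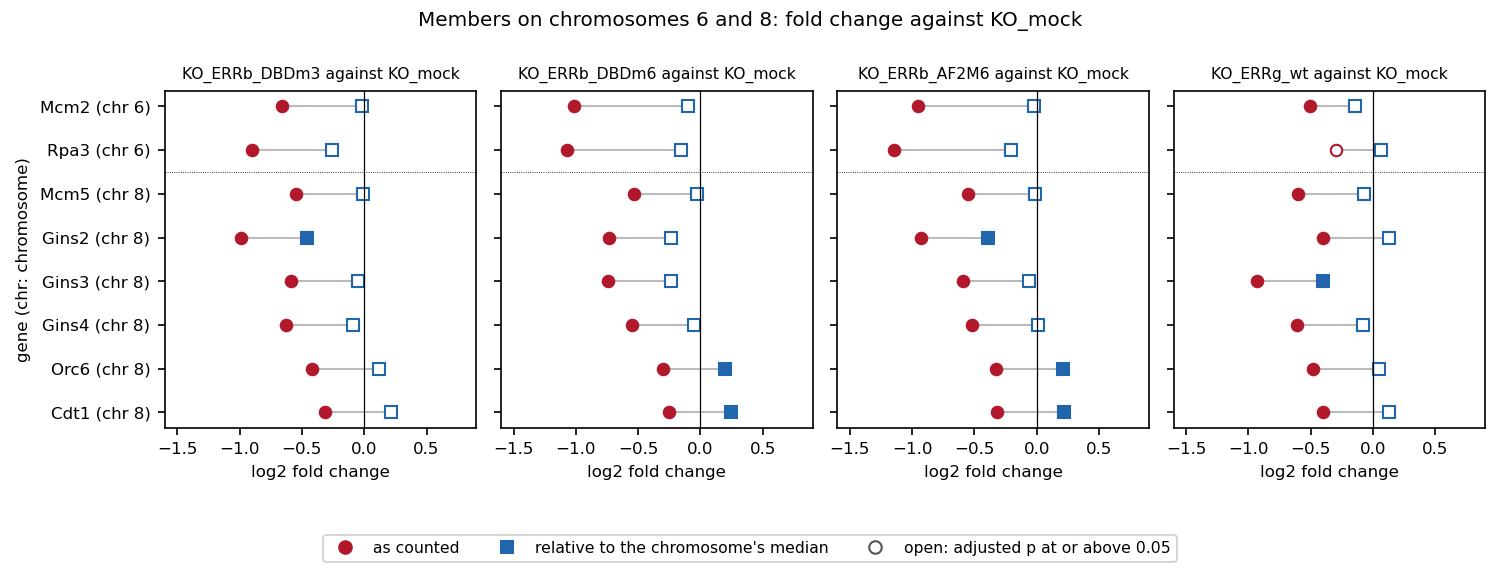
Log2 fold change against KO_mock of the 8 members on chromosomes 6 and 8, as counted (circles) and relative to the median gene of the chromosome (squares), 1 panel per group, filled where the adjusted p is below 0.05. As counted all but Rpa3 in KO_ERRg_wt are called lower, and relative to the chromosome Gins2 and Gins3 keep a lower call in some panels while Orc6 and Cdt1 are called higher in KO_ERRb_DBDm6 and KO_ERRb_AF2M6.

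Members of the same complex lie on different chromosomes, and the transcript make-up of complexes differed between groups. Shares are percent of the summed TPM of a complex. Mcm2 had a share of MCM2-7 of 20.4 and 16.2% in KO_ERRb_DBDm3, 14.6 and 14.8% in KO_ERRb_DBDm6, 15.3 and 15.3% in KO_ERRb_AF2M6, 20.5 and 19.5% in KO_ERRg_wt, 25.2 and 25% in KO_ERRb_wt, 26.2 and 25.6% in KO_mock, and 23.9 and 23.9% in WT_mock. The summed MCM2-7 level in TPM was 1967 and 1726 in KO_ERRb_DBDm3, 1803 and 1683 in KO_ERRb_DBDm6, 1744 and 1834 in KO_ERRb_AF2M6, 1994 and 1920.5 in KO_ERRg_wt, 2092 and 2114 in KO_ERRb_wt, 2156 and 2160.0 in KO_mock, and 2037 and 2027 in WT_mock. The Mcm2 share was largest in KO_mock and smallest in KO_ERRb_DBDm6, with no overlap between the mutants and the KO_ERRb_wt, KO_mock and WT_mock clones. For RPA, Rpa3 made up 29.8 and 25.4% in KO_ERRb_DBDm3, 26.1 and 26.8% in KO_ERRb_DBDm6, 26.1 and 22.2% in KO_ERRb_AF2M6, 42.3 and 37.1% in KO_ERRg_wt, 47.3 and 46.3% in KO_ERRb_wt, 40.4 and 41.9% in KO_mock, and 47.5 and 47.2% in WT_mock. Its share was lowest in the mutants, and in KO_mock both clones were below those of WT_mock, with Rpa2 at 31.1 and 29.1% in KO_mock against 22.3 and 23.1% in WT_mock. For GINS, Gins1, the subunit off chromosome 8, made up 31.1 and 33.8% in KO_ERRb_DBDm3, 34.8 and 31.8% in KO_ERRb_DBDm6, 34 and 33.5% in KO_ERRb_AF2M6, 28.7 and 30.6% in KO_ERRg_wt, 19.2 and 19.8% in KO_ERRb_wt, 21.1 and 20.4% in KO_mock, and 18.2 and 19.8% in WT_mock. Its share in the mutants and KO_ERRg_wt exceeded that in every clone of the other groups. The summed GINS level in TPM was 272 and 224 in KO_ERRb_DBDm3, 267 and 263 in KO_ERRb_DBDm6, 265 and 265 in KO_ERRb_AF2M6, 287 and 285 in KO_ERRg_wt, 361 and 376 in KO_ERRb_wt, 372 and 373 in KO_mock, and 349 and 350.4 in WT_mock.

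**Figure D5:**
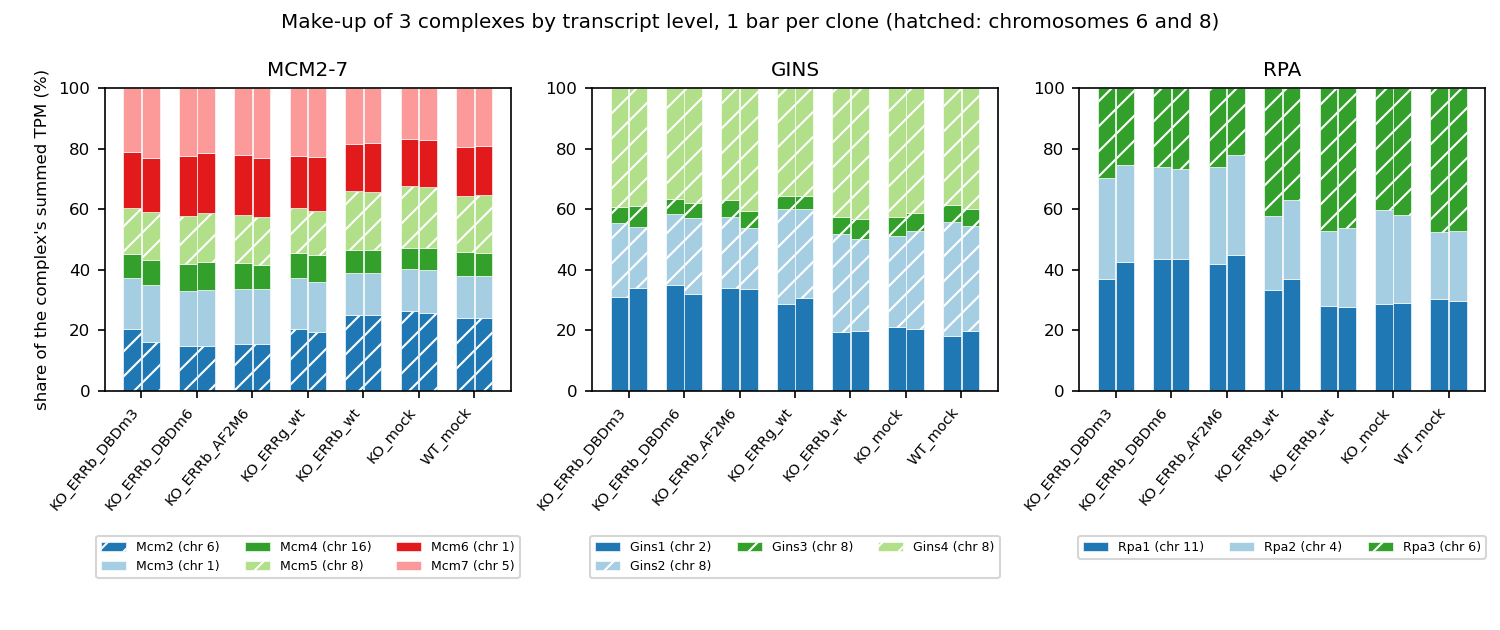
Stacked bars give each subunit's share (percent) of the summed TPM of MCM2-7, GINS and RPA, 1 bar per clone and 2 per group, with subunits on chromosomes 6 and 8 hatched. The hatched Mcm2 and Rpa3 parts are smallest in the mutants (14.6 to 20.4% and 22.2 to 29.8%), while the plain Gins1 part is largest there (31.1 to 34.8%).

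Other genes of the pathway, in 5 lists taken from general knowledge, were called higher more often than lower in KO_mock, apart from mitosis. The lists are short, and their calls, here and in the next paragraph, were not checked with a clone left out. Off chromosomes 6, 8 and 14, KO_mock against WT_mock had 8 higher and 4 lower of 18 replication accessory genes (median log2 fold change 0.18), 5 and 1 of 16 genes of licensing and firing control (0.16), 3 and 1 of 10 nucleotide supply genes (0.16), 4 and 0 of 8 nucleosome assembly genes (0.20) and 0 and 1 of 15 mitosis genes (0.06), where 18.8% of all genes were higher and 17.9% lower. Higher genes included Atad5, which helps unload PCNA (0.55 ± 0.0798, adjusted p = 0.00071), the fork protection factor Tipin (0.36 ± 0.0766, adjusted p = 0.00458) and Dck, the deoxycytidine kinase (0.47 ± 0.0917, adjusted p = 0.0029). Hells, a chromatin remodeller (0.37 ± 0.105, adjusted p = 0.017), and the histone chaperone Nasp (0.33 ± 0.0826, adjusted p = 0.0104) were also higher. Lower ones were Pold4, the smallest subunit of polymerase delta (−1.02 ± 0.201, adjusted p = 0.00309), Rrm2b, the p53-induced ribonucleotide reductase subunit (−0.75 ± 0.143, adjusted p = 0.00265), and the mitotic cyclin Ccnb2 (−0.48 ± 0.0647, adjusted p = 0.000496).

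Against KO_mock, E2f7, E2f8 and Clspn were called lower in each mutant and in KO_ERRg_wt. E2f8 was also lower in KO_ERRb_wt, short of the threshold (log2 fold change −0.37 ± 0.102, adjusted p = 0.0853). Its mean was 25.3 CPM in KO_ERRb_wt, 24.4 in KO_ERRb_DBDm3 and 32.8 in KO_mock. In KO_ERRb_wt and KO_mock the means were 25 and 25.9 CPM for E2f7 and 85.7 and 94.2 CPM for Clspn. For licensing and firing control, off chromosomes 6, 8 and 14, there were 0 higher and 3 lower of 16 in KO_ERRb_DBDm3, 1 and 3 in KO_ERRb_DBDm6, 3 and 3 in KO_ERRb_AF2M6, and 1 and 3 in KO_ERRg_wt. Replication accessory genes had 0 higher and 3 lower of 18 for KO_ERRb_DBDm3, and 4 higher and 3 lower for each of the other 3 groups. Nucleosome assembly genes had 0 higher and 0 lower of 8 for KO_ERRb_DBDm3, 1 and 2 for KO_ERRb_DBDm6, 1 and 1 for KO_ERRb_AF2M6, and 0 and 2 for KO_ERRg_wt. The share of all genes called higher was 13.5% for KO_ERRb_DBDm3, 22.5% for KO_ERRb_DBDm6, 19.8% for KO_ERRb_AF2M6 and 21.4% for KO_ERRg_wt. The share called lower was 8.31% for KO_ERRb_DBDm3, 15.9% for KO_ERRb_DBDm6, 13.8% for KO_ERRb_AF2M6 and 15% for KO_ERRg_wt, and counts near these shares are not read as a result about a list. The genes E2f7 and E2f8, whose products repress E2F targets, were lower in all 4 groups, among them KO_ERRb_DBDm6 (−0.70 ± 0.103, adjusted p = 0.000375, and −0.80 ± 0.103, adjusted p = 0.000161) and KO_ERRg_wt (−0.84 ± 0.105, adjusted p = 0.000172, and −0.58 ± 0.104, adjusted p = 0.00134). E2f4 and Tfdp1 were lower too but lie on chromosome 8. Clspn, the checkpoint adaptor of the fork, was lower in KO_ERRb_DBDm3 (−0.56 ± 0.0779, adjusted p = 0.00071), KO_ERRb_DBDm6 (−0.55 ± 0.0778, adjusted p = 0.000281), KO_ERRb_AF2M6 (−0.49 ± 0.0777, adjusted p = 0.000697) and KO_ERRg_wt (−0.56 ± 0.0785, adjusted p = 0.000333). Nucleotide supply had 1 higher and 1 lower of 10 for KO_ERRb_DBDm3, 3 and 5 for KO_ERRb_DBDm6, 2 and 2 for KO_ERRb_AF2M6, and 2 and 3 for KO_ERRg_wt. In KO_ERRb_DBDm6, Tyms, the thymidylate synthase, was higher (0.50 ± 0.0977, adjusted p = 0.00209) and Rrm1, the large ribonucleotide reductase subunit, was lower (−0.30 ± 0.0598, adjusted p = 0.00241), as both were in the other 3 groups. In KO_ERRg_wt Rrm2b was higher (0.91 ± 0.145, adjusted p = 0.000708). Of 15 mitosis genes, 0 were higher and 2 lower for KO_ERRb_DBDm3, 1 and 2 for KO_ERRb_DBDm6, 2 and 1 for KO_ERRb_AF2M6, and 0 and 3 for KO_ERRg_wt. Bub1, a spindle checkpoint kinase, was higher in KO_ERRb_DBDm6 (0.27 ± 0.0627, adjusted p = 0.00583) and KO_ERRb_AF2M6 (0.21 ± 0.0627, adjusted p = 0.021), and the mitotic kinase Aurka was higher in KO_ERRb_AF2M6 (0.16 ± 0.0533, adjusted p = 0.0318). Mki67, the proliferation marker Ki-67, was lower in all 4 groups, with log2 fold changes from −0.43 to −0.38.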

How the data were processed

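RNA-seq counts per gene were deposited by the authors as whole reads, from ribosomal RNA-depleted, strand-specific total RNA libraries read single-end. Per the submitters' processing notes reads were aligned with STAR 2.7.8a to mm10, and per the file headers featureCounts 2.0.1 counted them over exons, strand-specific, with reads on overlapping genes counted for each; the processing notes give featureCounts 2.0.10. None of the members' exons overlap another gene on the same strand. The libraries of a clone were summed, giving 2 clones in each of 7 groups.

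Counts were tested with edgeR 4.0.16 (R 4.3.3): filterByExpr, TMM, robust quasi-likelihood fit over all 14 clones, Benjamini-Hochberg adjustment over 15238 genes. The fit was also run on simulated counts, which held no chromosome-wide shift and so do not test the calls under such a shift. The standard error is the log2 fold change divided by the root of F. The p-values measure the spread between these clones, and nothing says whether libraries of a clone were separate cultures. TPM was computed from counts and exon lengths. Alternatives were RLE factors, DESeq2 1.42.0, no filter, only the 2 groups compared, scaling without chromosomes 6, 8 and 14, an offset per clone and chromosome, each clone left out, and single libraries in limma 3.58.1.

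The members, lists and tests were chosen with earlier results of these data known. Values are given for at most 6 called members off these chromosomes and 4 on them per comparison, by smallest p, for Pcna and Mcm2 to Mcm7, and for at most 4 genes of each other list. Rfc4, Rpa1, Lig1 and others named beside them serve to account for all members of a complex. Library numbers do not pair the samples.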

Additional observations from a re-analysis of the deposited data

Results flagged for a closer look

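In 7 of 240 groups of 4 libraries (2.92%), 1 library of a group stood far from the other 3, with a gap above the 95% critical value of Dixon's test, where chance alone flags about 1 in 20 such groups. No pattern is read from them. Mcm2 had 485 CPM in library 2 of clone 10-26 of KO_ERRb_DBDm6, with 522 to 524 CPM in the others. Mcm4 had 324 CPM in library 2 of clone 8-4 of KO_ERRb_wt, with 304 to 306 in the others. Mcm5 had 527 CPM in library 2 of clone 32-25 of KO_ERRb_AF2M6, with 570.2 to 578 in the others. In the same library Rpa2 had 131 CPM, with 146 to 148 in the others. Orc3 had 89.4 CPM in library 1 of clone 5-5 of WT_mock, with 101 to 103 in the others. Pole2 had 41.4 CPM in library 2 of clone 9-6 of KO_ERRb_DBDm3, with 46.03 to 46.22 in the others. Rpa3 had 94.8 CPM in library 2 of clone 12-3 of KO_mock, with 80.5 to 82.2 in the others.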

How the results depend on the processing

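Of 89 named fold changes, all kept direction and call with RLE factors, DESeq2 or no filter, 86 with totals and TMM off chromosomes 6, 8 and 14, 88 with single libraries and 72 with only the 2 groups compared. With 1 clone left out, the lone clone of its group being assumed to vary like the others, 288 of 356 values kept their call and 68 fell below the threshold. Member counts then spanned 2 to 14 in KO_mock against WT_mock, 0 to 2 in KO_ERRb_wt against WT_mock and 0 to 0 in KO_ERRb_wt against KO_mock. Against KO_mock they spanned 7 to 24 for KO_ERRb_DBDm3, 17 to 20 for KO_ERRb_DBDm6, 10 to 19 for KO_ERRb_AF2M6 and 10 to 12 for KO_ERRg_wt. Against KO_ERRb_wt they spanned 10 to 18, 16 to 18, 16 to 19 and 6 to 11 in the same groups, and 28 to 39 for any difference. With only the 2 groups compared, counts were 1 in KO_ERRb_wt against WT_mock, 1 in KO_ERRb_wt against KO_mock, 1 in KO_ERRb_DBDm3 against KO_mock and 3 in KO_ERRb_DBDm3 against KO_ERRb_wt. DESeq2 called 2 in KO_ERRb_wt against WT_mock, and single libraries 4, with or without the replicate block. With the block, which leaves out KO_ERRg_wt, the counts were 19 in KO_mock against WT_mock, 0 in KO_ERRb_wt against KO_mock and 32 for any difference. Library numbers did not pair clones (66 correlations of −0.121 to 0.355, 7 over 0.1).

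The offset per clone and chromosome, which removes the chromosome-wide shift by construction, gave 9 members in KO_ERRb_DBDm3, 20 in KO_ERRb_DBDm6 and 11 in KO_ERRg_wt against KO_mock, and 9 in KO_ERRb_DBDm3 and 6 in KO_ERRg_wt against KO_ERRb_wt. It weakened 20 named fold changes and reversed 10, none then called. Orc6 became 0.11 in KO_ERRb_DBDm3 against KO_mock and against KO_ERRb_wt, and in KO_ERRg_wt 0.048 against KO_mock and 0.047 against KO_ERRb_wt. Against KO_ERRb_wt, Mcm5 became 0.12 for KO_ERRb_DBDm3, 0.10 for KO_ERRb_DBDm6, 0.12 for KO_ERRb_AF2M6 and 0.061 for KO_ERRg_wt, and Mcm2 became 0.032 in KO_ERRb_DBDm6 and 0.11 in KO_ERRb_AF2M6.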
